A study of Mus musculus with 12 samples.

Results

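Pancreatic juice is made by moving bicarbonate, chloride and water across an epithelium, and the expression of 10 genes of that machinery was followed through 4 kinds of mouse pancreatic cells. The genes were Cftr, Slc4a4, Slc4a2, Slc26a6, Slc12a2, Car2, Aqp1, Aqp5, Aqp8 and Aqp12. They are 10 of the 22180 genes that had a probe set carrying a single gene symbol on the array. For a gene with several such probe sets, the one with the highest mean over the 12 arrays would have been taken, but each of these 10 genes had 1. They were chosen as genes of this machinery, with earlier results of these data known.

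The series compared acinar cells, which make digestive enzymes, with cells that have left that state. Each of the 4 groups had 3 arrays. Adult and embryonic acinar cells were freshly isolated by digestion and went straight into RNA extraction. Acinar-to-ductal metaplasia (ADM), the change of acinar cells into duct-like cells, was obtained by keeping cells in a 3D collagen gel for 7 days and giving them TGF-alpha, which binds the EGF receptor, at 50 ng/ml. The fourth group was low-passage tumor cells grown in standard medium, which were neither in collagen nor given TGF-alpha. All 4 groups carry the same strain label, C57Bl6/J wildtype. The labels give no embryonic stage, no adult age and no driver allele of the tumor, and the 3 tumor samples share 1 code, without a statement on whether they come from 1 line. Whether a group's replicates came from different animals or cultures is not stated either, so every p-value reflects the spread between these arrays alone, which may be technical.

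In the textbook account, a duct cell loads bicarbonate from the blood side through the sodium bicarbonate cotransporter Slc4a4 and makes more of it from carbon dioxide with carbonic anhydrase 2 (Car2). The bicarbonate leaves into the lumen through the chloride channel Cftr and the chloride-bicarbonate exchanger Slc26a6, and water follows. Acinar cells secrete a smaller, chloride-rich fluid, for which the sodium-potassium-chloride cotransporter Slc12a2 and the anion exchanger Slc4a2 load chloride at the basolateral membrane. Aquaporins are water channels. Aqp8 is known from the apical membrane of rodent acinar cells, Aqp12 from inside acinar cells, Aqp5 from the apical membrane of salivary and other gland epithelia, and Aqp1 from capillary endothelium and duct cells.

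Values are the authors' log2 signals, so a difference of 1 is a 2-fold change. The base of the logarithm was read from the range of the values, 1.56 to 13.67. Odorant and vomeronasal receptors, 1394 genes, served as a gauge of background, set at 3.62, the 95th percentile of their group means, and fold changes against a group at or under it are given as "at least", computed against 3.62. Groups were compared with limma over all 22180 genes, and a call required both a log2 difference of at least 1 and a p under 0.05 after Benjamini-Hochberg adjustment. A ± beside a level is an SD over 3 arrays, and beside a difference it is the SE of the limma fit.

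The labelled cell types were checked against their markers. The mean over 10 measured acinar markers was 11.40 to 11.46 on adult, 10.59 to 10.72 on embryonic, 7.75 to 8.58 on ADM and 3.66 to 3.92 on tumor arrays. The mean over 8 measured duct markers was 7.03 to 7.18 on adult, 8.10 to 8.32 on embryonic, 9.92 to 10.07 on ADM and 8.13 to 8.18 on tumor arrays. Tumor cells held the duct keratins Krt19 and Krt7 at 10.37 ± 0.10 and 10.22 ± 0.095, yet the epithelial genes Epcam and Cldn4 lay near background there, at 3.82 ± 0.17 and 3.55 ± 0.021. The 7 lists of markers of other cells, such as endothelial cells and fibroblasts, had their highest mean in the embryonic group. The mean over 10 fibroblast and stellate markers was 5.50 to 5.66 on adult, 8.72 to 9.40 on embryonic, 7.06 to 8.21 on ADM and 3.44 to 3.52 on tumor arrays, and 4 of the 10 were above background in tumor cells. Against adult cells 7 of the 10 were called higher and 1 lower in ADM cultures, beside 12.5% and 4.22% of all genes. In embryonic cells 9 were called higher, beside 10% of all genes. Col1a1, a chain of fibrillar collagen, had means of 4.62 in adult and 8.39 in ADM samples. The part of these cells in the ADM, embryonic and tumor differences below was not tested. In bulk RNA of this kind, fewer cells of a type and less RNA per cell cannot be told apart.

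Against adult acinar cells, the ADM cultures showed 4 genes higher, Cftr, Slc4a4, Slc12a2 and Car2, and 4 lower, Slc26a6, Aqp1, Aqp8 and Aqp12. That is 8 of the 10 genes called, where 16.7% of all genes were called in this comparison, 12.5% higher and 4.22% lower. For all 10 genes every ADM array lay on one side of every adult array, as it did for 49.8% of all genes. Embryonic acinar cells had 3 genes higher than adult ones, Car2, Aqp1 and Aqp8, and 2 lower, Slc26a6 and Aqp12, beside 12.6% of all genes called, 10% higher and 2.61% lower. Of the 10 genes 6 did not overlap, beside 42.9% of all. Tumor cells had 4 genes higher than adult cells, Slc4a4, Slc12a2, Car2 and Aqp5, and 3 lower, Slc26a6, Aqp8 and Aqp12, beside 20% of all genes called, 14% higher and 5.96% lower. None of the 10 overlapped, beside 43.7% of all. These 3 comparisons share the adult arrays. Of all genes called in them, 74.7%, 79.3% and 70.2% were higher, which became 20.1%, 24.3% and 22.5% when arrays were centred on their 75th percentile, 38.0%, 65.3% and 18.3% on housekeeping genes, 54.1%, 57.3% and 53.6% after quantile normalization and 56.3%, 65.5% and 50.0% after cyclic loess.

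The other 3 comparisons leave the adult arrays out. ADM cultures had 4 genes higher than embryonic acinar cells, Cftr, Slc4a4, Slc12a2 and Aqp5, and 4 lower, Slc26a6, Aqp1, Aqp8 and Aqp12, where 9.46% of all genes were called, 4.55% higher and 4.91% lower. Tumor cells had Slc4a4, Slc12a2, Car2 and Aqp5 higher than embryonic acinar cells and the same 4 lower, where 14.3% of all genes were called, 6.53% higher and 7.8% lower. In each of these comparisons 9 of the 10 genes did not overlap, beside 37.6% and 38.6% of all. Between tumor cells and ADM cultures 3 of 10 were called, Car2 higher and Cftr and Aqp12 lower in tumor cells, where 8.35% of all genes were called, 3.28% higher and 5.07% lower. Here 5 of 10 did not overlap, beside 31.6% of all. The median difference over the 10 genes was 0.71 in ADM against adult cells, where the median over all genes was -0.11, and 0.16 in tumor cells against ADM, where it was 0.06.

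**Figure D1:**
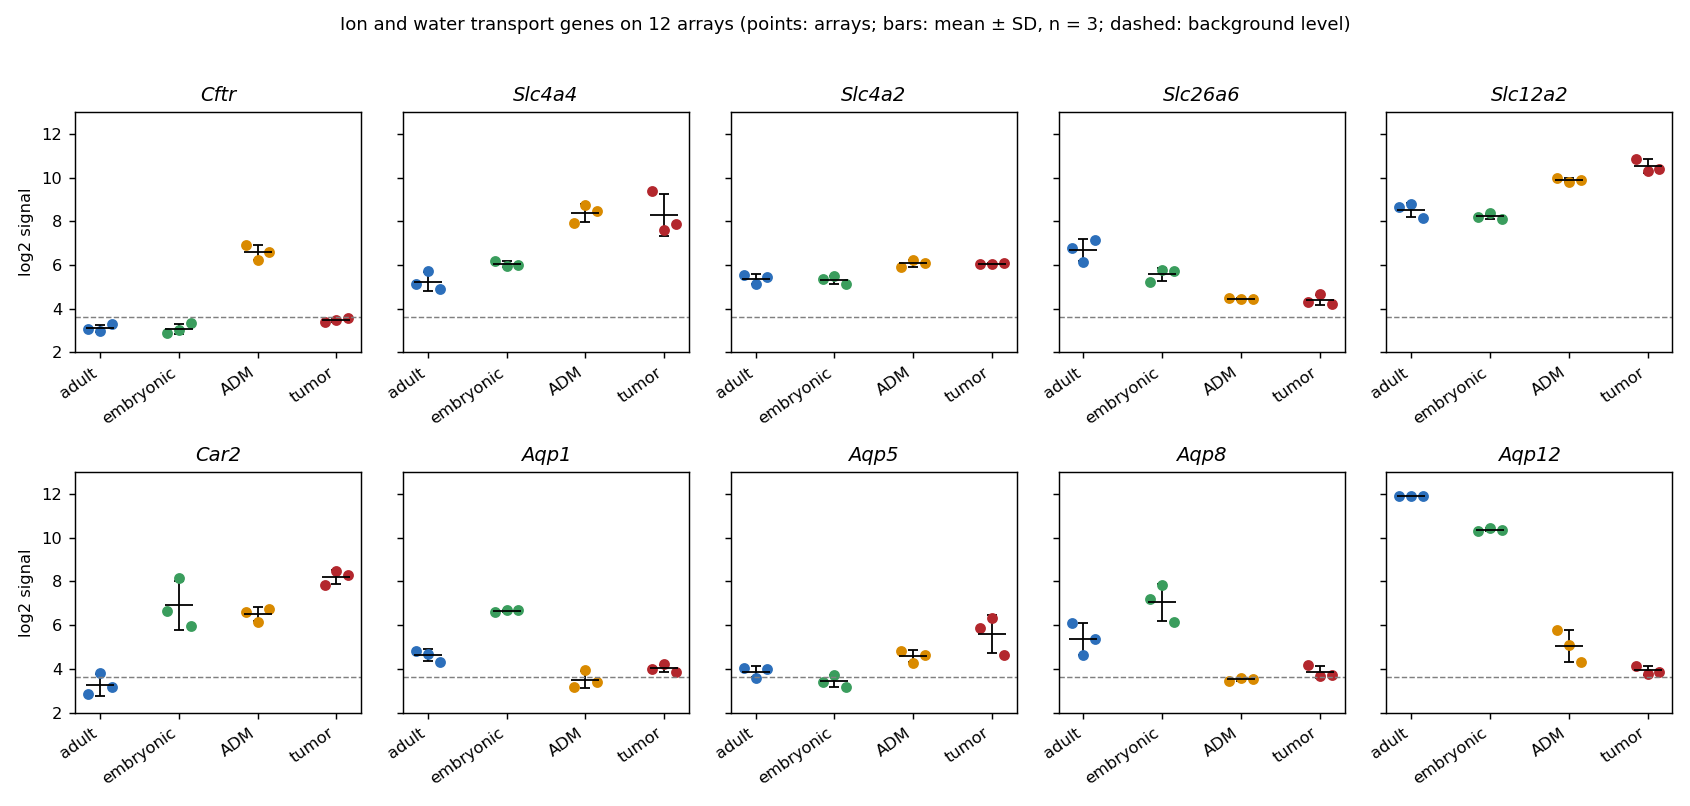
Log2 signal (y axis) of the 10 genes on each of the 12 arrays, by group (x axis), with bars for the mean ± SD of 3 arrays and a dashed line at the background level of 3.62. Cftr stands above the line in the ADM group alone, and Aqp12 steps down from 11.91 in adult to 3.93 in tumor cells.

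Cftr is the chloride and bicarbonate channel of the apical membrane of duct cells, mutated in cystic fibrosis. Its signal on the ADM arrays was 6.90, 6.22 and 6.61. The adult arrays read 3.05, 2.97 and 3.29, the embryonic arrays 2.89, 3.04 and 3.34, and the tumor arrays 3.38, 3.49 and 3.59. All 9 arrays outside the ADM group thus lay under background, and every ADM array stood far above them with no overlap. The ADM mean was 6.58 ± 0.34.

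Cftr was at least 7.76-fold higher in ADM cultures than in each of the other groups. The measured log2 differences were 3.47 ± 0.19 against adult acinar cells (adjusted p = 2.45e-08) and 3.49 ± 0.19 against embryonic acinar cells (adjusted p = 3.30e-08). Tumor cells were lower than ADM cultures by 3.09 ± 0.19 (adjusted p = 1.11e-07). With 3 groups under background, nothing can be said of the order of adult, embryonic and tumor cells.

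The window before the Cftr start is shown because this gene went from background to a clear signal, and for contrast with the acinar water channels described further on. It is the 250 bases before the annotated start, chr6:18170437-18170686 on the plus strand of GRCm38.p6, from RefSeq.
Cftr: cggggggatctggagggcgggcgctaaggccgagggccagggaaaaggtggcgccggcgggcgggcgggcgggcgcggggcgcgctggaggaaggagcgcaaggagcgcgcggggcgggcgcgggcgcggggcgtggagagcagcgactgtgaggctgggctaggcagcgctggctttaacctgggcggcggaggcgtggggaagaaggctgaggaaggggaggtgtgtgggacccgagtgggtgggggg
Together with the first 50 transcribed bases, this window of 300 bases was 71.3% G or C and held 31 CpG dinucleotides. The medians over all 32851 such windows in the mouse table were 52.7% and 7.

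Slc4a4, the sodium bicarbonate cotransporter of the basolateral membrane, was high in both ADM cultures and tumor cells. The ADM arrays read 7.93, 8.73 and 8.47 and the tumor arrays 9.37, 7.61 and 7.86. The adult arrays read 5.11, 5.71 and 4.90, and the embryonic arrays 6.18, 5.95 and 5.99. Every ADM and tumor array lay above every acinar array, whereas the ADM and tumor ranges overlapped.

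The Slc4a4 signal was 8.79-fold higher in ADM cultures than in adult acinar cells (log2 difference 3.14 ± 0.38, adjusted p = 2.68e-05) and 8.22-fold higher in tumor cells (3.04 ± 0.38, adjusted p = 2.41e-05). Against embryonic acinar cells the log2 differences were 2.34 ± 0.38 for ADM (adjusted p = 0.000635) and 2.24 ± 0.38 for tumor cells (adjusted p = 0.000576). The 2 lower groups, embryonic at 6.04 ± 0.12 and adult at 5.24 ± 0.42, did not differ beyond the threshold (0.80 ± 0.38, adjusted p = 0.129). The 2 higher ones did not either, with tumor cells at -0.10 ± 0.38 from ADM (adjusted p = 0.931). The tumor mean carries 1 array, at 9.37, that stood well above the other two.

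Slc4a2, a basolateral exchanger that trades intracellular bicarbonate for chloride, moved least. Its group means were 5.37 ± 0.23 in adult, 5.32 ± 0.17 in embryonic, 6.07 ± 0.17 in ADM and 6.05 ± 0.030 in tumor samples. All 6 ADM and tumor arrays, at 5.89 to 6.22, lay above all 6 acinar arrays, at 5.11 to 5.54. The differences from adult cells were 0.70 ± 0.16 for ADM (adjusted p = 0.00384) and 0.68 ± 0.16 for tumor cells (adjusted p = 0.00416), past the p threshold but short of the log2 difference of 1 that a call required. The tumor difference fell to -0.013 when arrays were centred on housekeeping genes, so its direction depended on the scaling.

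Slc26a6, which exchanges luminal chloride for bicarbonate, went the opposite way from Slc4a4. The adult arrays read 6.79, 6.12 and 7.12, the embryonic 5.22, 5.76 and 5.74, the ADM 4.49, 4.43 and 4.42, and the tumor 4.31, 4.67 and 4.23. The adult arrays were all above the embryonic ones, and these were all above the ADM and tumor arrays, which overlapped. The signal was 4.69-fold lower in ADM cultures than in adult cells (log2 difference -2.23 ± 0.24, adjusted p = 8.55e-06) and 4.83-fold lower in tumor cells (-2.27 ± 0.24, adjusted p = 4.71e-06).

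Embryonic acinar cells lay between, 2.15-fold under adult cells for Slc26a6 (-1.10 ± 0.24, adjusted p = 0.00355). That call ended without adult replicate 3 (-0.88) or embryonic replicate 1 (-0.93). ADM cultures and tumor cells were lower than embryonic cells by 1.13 ± 0.24 (adjusted p = 0.00413) and 1.17 ± 0.24 (adjusted p = 0.00218) on the log2 scale, the latter being -0.93 after quantile normalization. ADM and tumor cells did not differ beyond the threshold (-0.043 ± 0.24, adjusted p = 0.953). Of the 2 luminal exit routes for bicarbonate in this set, the channel Cftr was therefore higher and the exchanger Slc26a6 lower in ADM cultures than in both acinar groups.

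Slc12a2 brings sodium, potassium and chloride into the cell together and was well above background in every group. The tumor arrays read 10.87, 10.31 and 10.39 and the ADM arrays 9.98, 9.78 and 9.88, while the adult arrays read 8.63, 8.78 and 8.16 and the embryonic arrays 8.19, 8.36 and 8.10. Every tumor array was above every ADM array, and every ADM array above every acinar array. Adult and embryonic cells overlapped.

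Tumor cells had 4-fold more Slc12a2 signal than adult acinar cells (log2 difference 2.00 ± 0.19, adjusted p = 2.22e-06) and 4.95-fold more than embryonic ones (2.31 ± 0.19, adjusted p = 9.04e-07). ADM cultures had 2.56-fold more than adult cells (1.36 ± 0.19, adjusted p = 0.000102) and 3.17-fold more than embryonic cells (1.66 ± 0.19, adjusted p = 3.69e-05). The ADM difference from adult cells was 0.95 after centring on housekeeping genes and 0.75 after centring on the 75th percentile, short of a call in both. The step from ADM to tumor cells, 0.64 ± 0.19 (adjusted p = 0.0373), was under the log2 difference a call required, and embryonic cells were not distinguishable from adult ones (-0.31 ± 0.19, adjusted p = 0.245).

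Car2, the cytosolic enzyme that turns carbon dioxide and water into bicarbonate and protons, was at background in adult acinar cells, with 2.83, 3.81 and 3.17 on the 3 arrays. It was well above background in every other group, with 6.63, 8.14 and 5.97 on the embryonic, 6.60, 6.13 and 6.76 on the ADM and 7.85, 8.50 and 8.28 on the tumor arrays. No array of those groups overlapped the adult range. Tumor cells were at least 24.1-fold above adult cells (log2 difference 4.94 ± 0.43, adjusted p = 9.96e-07), and the difference was 4.35 after cyclic loess. Embryonic cells were at least 9.80-fold above them (3.64 ± 0.43, adjusted p = 3.94e-05) and ADM cultures at least 7.34-fold (3.23 ± 0.43, adjusted p = 6.65e-05).

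The order among the 3 higher groups of Car2 was less firm. Tumor cells exceeded ADM cultures by 1.71 ± 0.43 (adjusted p = 0.0159) with no overlap, but the call ended without ADM replicate 2 (adjusted p = 0.0686), tumor replicate 2 (0.0707) or tumor replicate 3 (0.0539). Tumor cells exceeded embryonic cells by 1.30 ± 0.43 (adjusted p = 0.0414) with overlapping arrays. That call ended without embryonic replicate 1 (0.129) or 3 (0.187), tumor replicate 2 (0.131) or 3 (0.106), adult replicate 3 (0.0538), or ADM replicate 1 (0.0553) or 3 (0.0525), and in the fit on the 2 groups alone (0.0970). It also ended after quantile normalization (0.0861), cyclic loess (0.111), and centring on housekeeping genes (0.124) or the 75th percentile (0.0586). ADM and embryonic cells did not differ beyond the threshold (-0.42 ± 0.43, adjusted p = 0.654).

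Red blood cells also carry much carbonic anhydrase 2, and the embryonic array with the most Car2 was the one with the most red cell signal. On embryonic replicate 2, Rhag, a Rh-family membrane protein of red cells, read 5.38, beside 3.28 and 3.19 on the other two. Slc4a1, the anion exchanger of the red cell membrane, read 6.16 there, beside 5.34 and 4.72. The mean over the 4 measured genes of a red cell list of 10 was 3.59 to 4.87 on embryonic, 3.46 to 3.63 on adult, 3.15 to 3.25 on ADM and 3.30 to 3.43 on tumor arrays, and the globin genes are not among the 4. Of these 4, 3 were above background in embryonic, 2 in adult, 1 in ADM and 2 in tumor samples. The 1 above background in ADM samples was Klf1, at 3.71, and the 2 in tumor samples were Klf1, at 3.87, and Ermap, at 3.64. Rhag lay under background on all 6 ADM and tumor arrays, at 2.63 to 3.01. None of the 4 was called in embryonic against adult cells, where 10% of all genes were called higher and 2.61% lower. Genes outside the red cell list also peaked on embryonic replicate 2, such as Aqp8 at 7.82, Slc26a9 at 9.62 and Car9 at 7.12. Car13 was lowest there, at 4.6. The part of red cells in the Car2 levels was not tested.

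Aqp12, a water channel kept inside acinar cells, had the widest range of the 10 genes, 7.98 between its highest and lowest group mean. The adult arrays read 11.91, 11.92 and 11.89 and the embryonic arrays 10.33, 10.44 and 10.35. The ADM arrays read 5.77, 5.07 and 4.33, and the tumor arrays 4.15, 3.78 and 3.86. No 2 groups overlapped, and all 4 group means were above background, though the tumor mean of 3.93 ± 0.20 was close to it.

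The Aqp12 signal was 115-fold lower in ADM cultures than in adult acinar cells (log2 difference -6.85 ± 0.27, adjusted p = 1.23e-09) and 252-fold lower in tumor cells (-7.98 ± 0.27, adjusted p = 1.82e-10). Embryonic acinar cells had 2.89-fold less than adult ones (-1.53 ± 0.27, adjusted p = 0.000818). ADM cultures were 39.9-fold and tumor cells 87.0-fold under embryonic cells (adjusted p = 1.67e-08 and 1.22e-09). Tumor cells were below ADM cultures by 1.13 ± 0.27 (adjusted p = 0.0108), a call that ended without ADM replicate 1 (-0.77), after quantile normalization (-0.86) and in the fit on those 2 groups alone (adjusted p = 0.0573).

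Within the ADM group the array with the most Aqp12, replicate 1, was also the highest for all 10 acinar markers. The order of the 3 arrays was that of Aqp12 for 5 of the 10, whereas the other 5, were lowest on replicate 2. ADM replicate 1 read 9.84 for the elastase Cela1, 10.83 for the carboxypeptidase Cpb1 and 6.78 for Ptf1a, a transcription factor of acinar cells. ADM replicate 3, which had the least Aqp12, read 7.10, 8.40 and 5.21 for the same genes, and replicate 2 lay between for these genes. The amylase Amy2b read 5.19, 3.61 and 5.02 on replicates 1, 2 and 3. The part of remaining acinar cells in the ADM level of Aqp12 was not tested.

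Of the 10 acinar markers 8 were called lower in ADM than in adult cells, as Aqp12 was, beside 4.22% of all genes. The other two were not called, the protease gene Ctrb1 at -0.20 ± 0.27 (adjusted p = 0.593) and the carboxypeptidase gene Cpa1 at -0.72 ± 0.18 (adjusted p = 0.00798). The Aqp12 promoter is shown because Aqp12 is known as a gene of acinar cells, and acinar genes are known to be bound by PTF1, a complex of Ptf1a with Rbpjl that reads an E-box followed at a set distance by TTCCC. The window is chr1:93006084-93006333, plus strand, GRCm38.p6, from RefSeq. Capitals mark a CCAAT box, 76 to 72 bases before the start, and a match to CANNTG and TTCCC with 6 bases between them, 51 to 35 bases before it.
Aqp12: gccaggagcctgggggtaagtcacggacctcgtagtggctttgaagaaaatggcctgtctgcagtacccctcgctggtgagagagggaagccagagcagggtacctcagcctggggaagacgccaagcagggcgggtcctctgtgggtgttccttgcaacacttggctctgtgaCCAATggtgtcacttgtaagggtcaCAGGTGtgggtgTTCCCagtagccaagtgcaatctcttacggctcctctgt
On both strands of all 32851 windows, CANNTG followed by TTCCC was found with 6 bases between in 0.34%, with 5 bases between in 0.40%, and with either in 0.73%. CCAAT alone was found in 37.4% and TATAAA in 13.6%. Neither spacing was found in the window of another of these genes, and the match is a description of letters, not of a bound site.

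Aqp8, the apical water channel of acinar cells, was highest in embryonic acinar cells, with 7.18, 7.82 and 6.13, followed by adult cells, with 6.11, 4.65 and 5.36. The ADM arrays read 3.44, 3.60 and 3.53, all under background, and the tumor arrays 4.18, 3.69 and 3.70, just above it. The 2 acinar groups were separate, by a narrow gap, and both stood above ADM and tumor arrays. Embryonic cells had 3.18-fold more Aqp8 signal than adult cells (log2 difference 1.67 ± 0.39, adjusted p = 0.00608). Of the 10 acinar markers, none was called higher and 3 were called lower in this comparison, beside 10% and 2.61% of all genes. The part of cells other than acinar cells in the Aqp8 levels was not tested.

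ADM cultures had at least 3.37-fold less Aqp8 than adult cells (-1.85 ± 0.39, adjusted p = 0.00227) and at least 10.7-fold less than embryonic cells (-3.52 ± 0.39, adjusted p = 2.55e-05). Tumor cells had 2.86-fold less than adult (-1.52 ± 0.39, adjusted p = 0.00732) and 9.11-fold less than embryonic cells (-3.19 ± 0.39, adjusted p = 3.53e-05). Tumor and ADM samples did not differ beyond the threshold (0.33 ± 0.39, adjusted p = 0.699). The window before the Aqp8 start is printed for comparison with Cftr and Aqp12, chr7:123462044-123462293, plus strand, GRCm38.p6, from RefSeq.
Aqp8: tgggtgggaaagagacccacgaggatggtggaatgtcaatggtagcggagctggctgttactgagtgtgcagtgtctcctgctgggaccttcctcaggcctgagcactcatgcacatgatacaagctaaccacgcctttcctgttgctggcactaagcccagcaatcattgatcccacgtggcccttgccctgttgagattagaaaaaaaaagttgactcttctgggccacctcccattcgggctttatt
The Aqp8 window of 300 bases was 52.0% G or C with 6 CpG and the Aqp12 window 59.0% with 7, both near the medians of all windows, whereas the Cftr window above held 31 CpG. Among the other genes, the windows of Slc4a4 held 50 and 3 CpG, those of Slc4a2 37 and 16 and that of Aqp5 46. Aqp1 held 8 and Slc26a6 13. Windows were found for 8 of the 10 genes, 10 windows in all.

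Aqp1, the water channel of capillary endothelium and duct cells, was highest in embryonic acinar cells, where the arrays read 6.62, 6.68 and 6.71. The adult arrays read 4.84, 4.69 and 4.31, the tumor arrays 4.01, 4.20 and 3.86, and the ADM arrays 3.18, 3.94 and 3.39. The embryonic arrays stood well clear, the adult arrays were above all tumor and ADM arrays, and the last 2 groups overlapped. Embryonic cells had 4.16-fold more signal than adult cells (log2 difference 2.06 ± 0.20, adjusted p = 7.75e-06).

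ADM cultures, with a mean under background, had at least 8.28-fold less Aqp1 than embryonic cells (-3.17 ± 0.20, adjusted p = 1.44e-07), and tumor cells 6.26-fold less (-2.65 ± 0.20, adjusted p = 3.69e-07). ADM was at least 1.99-fold below adult cells (-1.11 ± 0.20, adjusted p = 0.000753), but the difference was -0.997, just short of a call, without adult replicate 1 and -0.95 without ADM replicate 1. Tumor cells were below adult cells by 0.59 ± 0.20 (adjusted p = 0.0343), not called, though called after centring on housekeeping genes (-1.28) or the 75th percentile (-1.21). Tumor and ADM samples did not differ beyond the threshold (0.52 ± 0.20, adjusted p = 0.111).

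Endothelial genes were higher in the same embryonic samples as Aqp1. The mean over 11 endothelial markers was 6.81 to 6.99 on embryonic, 5.12 to 5.25 on adult, 4.86 to 5.08 on ADM and 3.53 to 3.60 on tumor arrays. Of the 11, 10 were called higher in embryonic than in adult cells, beside 10% of all genes. All 11 were called lower in ADM than in embryonic cells, beside 4.91% of all genes. Cdh5, the cadherin of endothelial junctions, read 10.05 to 10.07 on the embryonic arrays and 7.20 to 7.71 on the adult ones. In tumor cells 4 of the 11 were above background. In ADM against adult cells 1 of the 11 was called lower and none higher, beside 4.22% and 12.5% of all genes. The part of endothelial cells in the Aqp1 differences was not tested.

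**Figure D2:**
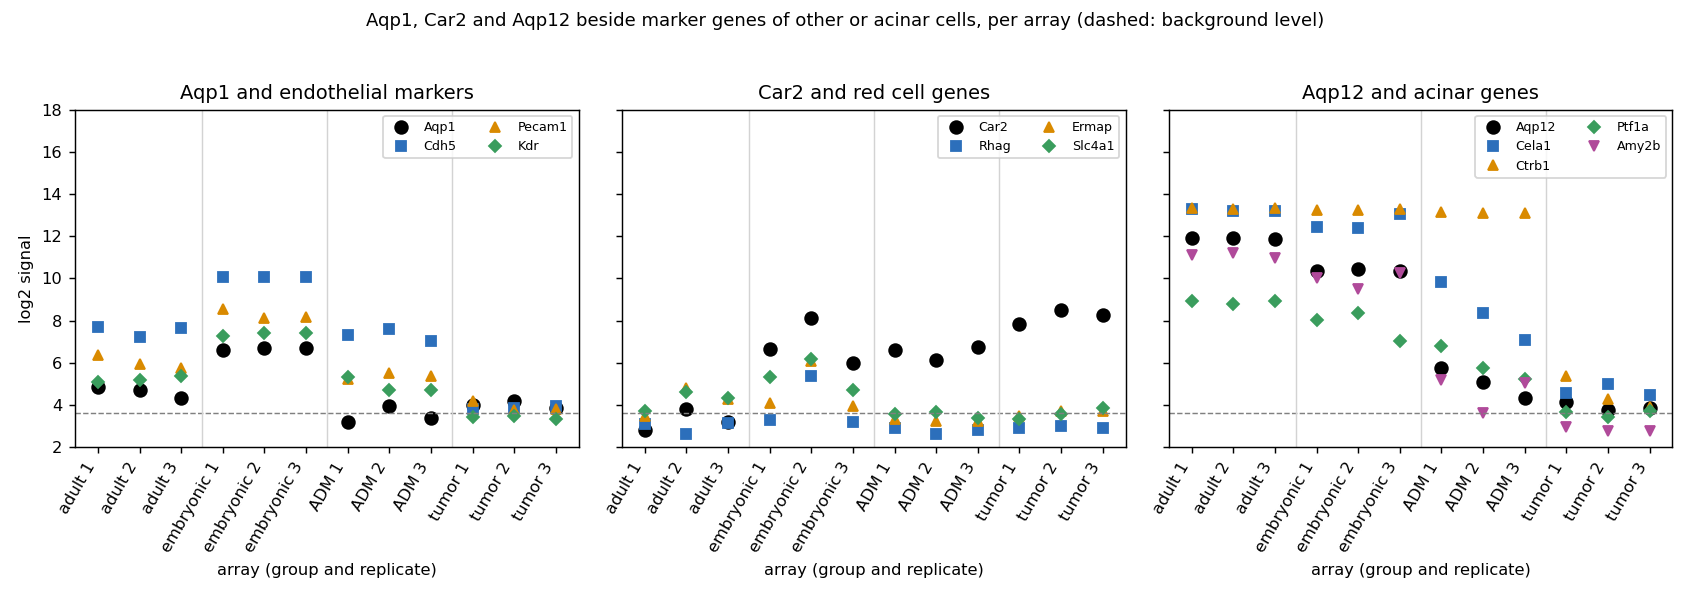
Log2 signal (y axis) on each of the 12 arrays (x axis) of Aqp1 beside 3 endothelial genes, Car2 beside 3 red cell genes and Aqp12 beside 4 acinar genes, with a dashed line at the background of 3.62. Aqp1 and Cdh5 both peak on the embryonic arrays, and Car2 is low on the adult arrays alone. Aqp12, Cela1, Ptf1a and Amy2b are lower on ADM than on adult arrays while Ctrb1 stays near 13 there.

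Aqp5, an apical water channel of gland epithelia, was the one aquaporin of the set with its highest level in tumor cells, at 5.86, 6.31 and 4.62. The ADM arrays read 4.81, 4.29 and 4.65, the adult arrays 4.02, 3.58 and 3.99, and the embryonic arrays 3.39, 3.72 and 3.19. All tumor and ADM arrays lay above all acinar arrays, tumor and ADM arrays overlapped, and so did adult and embryonic ones. Tumor cells had 3.32-fold more Aqp5 signal than adult cells (log2 difference 1.73 ± 0.34, adjusted p = 0.00103) and at least 3.93-fold more than embryonic cells (2.16 ± 0.34, adjusted p = 0.000292).

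The ADM level of Aqp5 was not called against adult cells (0.72 ± 0.34, adjusted p = 0.112). It was called against embryonic cells (1.15 ± 0.34, at least 1.95-fold, adjusted p = 0.0301). That call ended without embryonic replicate 1 (0.0806) or 3 (0.106) or ADM replicate 1 (0.109) or 3 (0.0897), and after centring on housekeeping genes (0.0513). Tumor cells exceeded ADM cultures by 1.01 ± 0.34, not called (adjusted p = 0.0614), but called without tumor replicate 3 (1.502, adjusted p = 0.00107), after quantile normalization (1.02, adjusted p = 0.0423) and on bright genes alone (adjusted p = 0.0470). Adult and embryonic cells did not differ beyond the threshold (-0.43 ± 0.34, adjusted p = 0.350).

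**Figure D3:**
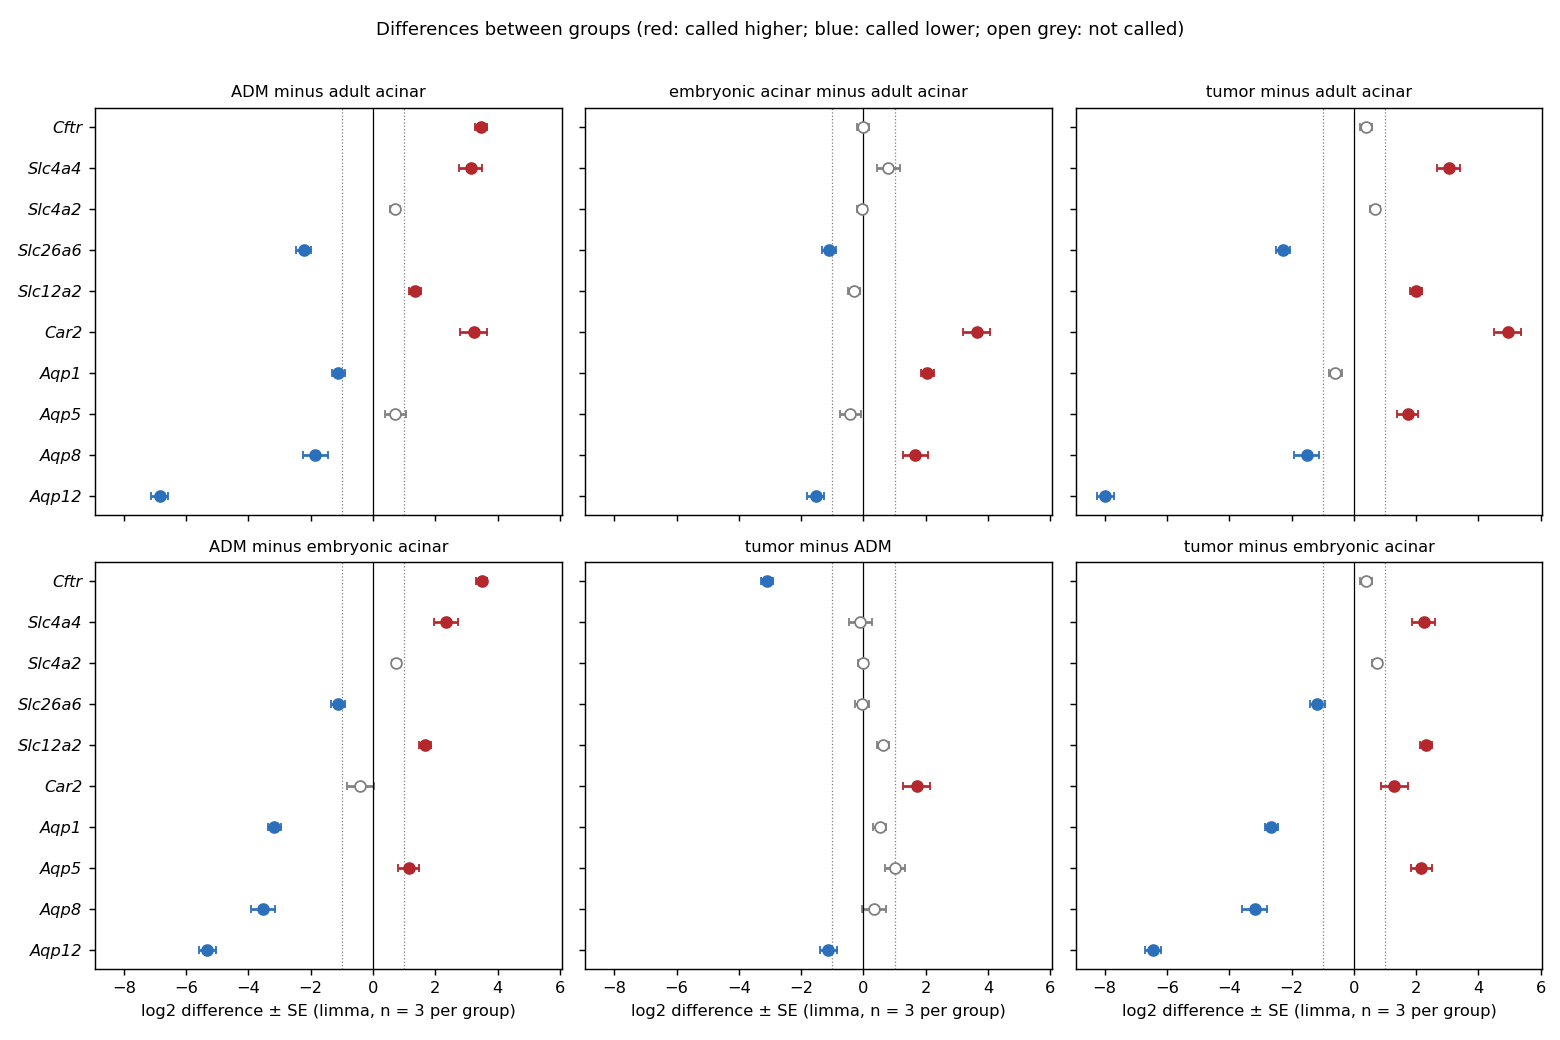
Log2 differences ± SE (x axis, limma, 3 arrays per group) of the 10 genes (y axis) in the 6 comparisons, red where called higher, blue where called lower, open where not called, with dotted lines at a difference of 1 in either direction. In tumor minus ADM only Car2, Cftr and Aqp12 are filled, and Aqp12 reaches -7.98 in tumor minus adult acinar.

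The 5 bicarbonate and chloride genes other than Car2 thus split by group. In ADM cultures Cftr, Slc4a4 and Slc12a2 were above adult cells and Slc26a6 below. Tumor cells shared the Slc4a4, Slc12a2 and Slc26a6 changes but had Cftr at 3.49 ± 0.10, under background. The direct comparison of tumor cells with ADM cultures called Cftr and not the other 4 genes. Among the 4 aquaporins, Aqp12 and Aqp8 were lower in ADM and tumor cells than in both acinar groups. Aqp5 was higher in tumor cells than in both. ADM and tumor cells were both cultured, whereas both acinar groups were freshly isolated. For the changes that ADM and tumor cells shared, culture and the change of cell state cannot be told apart.

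Around these 10 genes, 7 lists of other transport genes held 91 entries, of which 80 were measured. In ADM against adult cells 19 were called higher and 5 lower, in embryonic against adult cells 10 and 4, and in tumor against adult cells 16 and 9. The shares called among all genes were 12.5% and 4.22%, 10% and 2.61%, and 14% and 5.96%, in the same order. Tumor against ADM gave 3 higher and 10 lower, beside 3.28% and 5.07% of all genes, ADM against embryonic cells 11 and 3, beside 4.55% and 4.91%, and tumor against embryonic cells 12 and 11, beside 6.53% and 7.8%. The medians over the 80 genes, -0.05, -0.03 and -0.18 in the comparisons with adult cells, lay near those over all genes, -0.11, -0.09 and -0.09. The splits against adult cells moved with the scaling of the arrays. After centring on the 75th percentile ADM had 11 higher and 21 lower, embryonic cells 8 and 15, and tumor cells 11 and 29, and after centring on housekeeping genes the counts were 15 and 13, 10 and 8, and 10 and 35. The genes named next kept their calls under every scaling unless stated otherwise.

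Of 12 chloride channels 6 were called higher in ADM cultures than in adult cells, 5 in tumor cells and 1 in embryonic cells, and none lower, where 12.5%, 14% and 10% of all genes were called higher. The counts and the direction moved with the scaling. After centring on the 75th percentile 2 were higher and 1 lower in ADM, 2 and 1 in tumor and 1 and 2 in embryonic cells, and after centring on housekeeping genes 3 and 0, 1 and 2, and 1 and 0. Quantile normalization gave 4 higher and 0 lower in ADM, 4 and 0 in tumor and 1 and 1 in embryonic cells, and cyclic loess 4 and 0, 3 and 1, and 1 and 0. In ADM cultures Clcn5, an endosomal chloride-proton exchanger, was higher by 2.15 ± 0.18 (adjusted p = 9.58e-07) and Clcn2, a plasma membrane channel, by 1.83 ± 0.34 (adjusted p = 0.000911). In tumor cells Ano6, a scramblase and channel, was higher by 2.01 ± 0.13 (adjusted p = 6.55e-08). Ano1, the calcium-activated chloride channel of secretory epithelia, exceeded embryonic cells by 2.02 ± 0.21 in ADM cultures (adjusted p = 1.69e-05) and 2.25 ± 0.21 in tumor cells (adjusted p = 3.31e-06). Its differences from adult cells, 1.31 and 1.54, were lost after centring on housekeeping genes or the 75th percentile.

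Among 16 other bicarbonate and chloride transporters, 3 were higher in ADM, 3 in embryonic and 4 in tumor cells than in adult cells, and none was lower. Over all genes 12.5%, 10% and 14% were called higher, in the same order, and only 4.22%, 2.61% and 5.96% lower. After centring on the 75th percentile the counts were 3 higher and 3 lower, 2 and 1, and 4 and 4, and after centring on housekeeping genes 3 and 2, 3 and 0, and 4 and 6. Slc26a9, an anion transporter of gastric and airway epithelia, read 8.76, 9.62 and 7.80 on the embryonic arrays and 4.03, 5.16 and 4.37 on the adult ones. The difference was 4.21 ± 0.47 (adjusted p = 2.37e-05), and in ADM cultures it was 2.41 ± 0.47 (adjusted p = 0.00131). Embryonic replicates 2 and 3, with the most and the least Slc26a9, were also those with the most and the least Aqp8. The potassium-chloride cotransporter Slc12a4, which lets chloride out where Slc12a2 brings it in, was 6.98-fold higher in ADM and 9.04-fold higher in tumor cells than in adult cells (adjusted p = 4.06e-06 and 8.26e-07). These Slc12a4 folds are log2 differences of 2.80 and 3.18, which became 1.59 and 1.81 when its probe sets were averaged. Slc9a2, a sodium-proton exchanger, was higher in tumor cells than in ADM cultures by 1.55 ± 0.33 (adjusted p = 0.00584).

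Ion pumps and sodium channels gave 3 of 8 higher in ADM against adult cells and 3 of 8 lower in tumor cells against ADM. The shares of all genes were 12.5% and 5.07%. Both counts hold the same 3 genes, Atp1b1, Fxyd2 and Scnn1a, and both comparisons use the ADM arrays. The Fxyd2 call against adult cells ended after quantile normalization or centring on housekeeping genes or the 75th percentile. It also ended without adult replicate 1 or ADM replicate 1. Centring on the 75th percentile or on housekeeping genes left 2 higher and 1 lower in ADM, and again 3 lower in tumor cells against ADM. Scnn1a, the alpha subunit of the epithelial sodium channel, read 7.54, 8.19 and 8.16 on the ADM arrays and 3.92, 3.08 and 3.73 on the tumor arrays. It was 13.2-fold higher in ADM than in adult cells (3.73 ± 0.24, adjusted p = 1.09e-07) and at least 20.3-fold lower in tumor cells than in ADM (-4.39 ± 0.24, adjusted p = 4.60e-08). The genes of the beta and gamma subunits, Scnn1b and Scnn1g, were not raised. Their means were 3.58, under background, and 3.90 in ADM, beside 3.79 and 4.70 in adult cells. Atp1b1, the beta subunit of the sodium pump, was higher in ADM than in adult cells by 2.01 ± 0.19 (adjusted p = 2.92e-06) and lower in tumor cells than in ADM by 1.43 ± 0.19 (adjusted p = 0.000141). Cftr and Scnn1a were thus both above background in ADM cultures. In tumor cells Cftr was under it on all 3 arrays. The tumor mean of Scnn1a, 3.58, was just under it, with the arrays at 3.92 and 3.73 above.

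Potassium channels set the voltage that drives anion exit, and the 10 measured ones moved in both directions, 2 higher and 1 lower in ADM and 2 higher and 2 lower in tumor cells against adult cells. The shares of all genes were 12.5% higher and 4.22% lower in ADM, and 14% and 5.96% in tumor cells. After centring on the 75th percentile the counts were 1 and 5 in ADM and 1 and 7 in tumor cells, and after centring on housekeeping genes 2 and 1, and 1 and 8. Kcnn4, the calcium-activated channel of intermediate conductance, rose from 4.70 ± 0.20 in adult cells to 6.64 ± 0.46 in ADM and 9.07 ± 0.093 in tumor cells. The tumor difference from adult cells was 4.37 ± 0.22 (adjusted p = 7.08e-09) and that from ADM cultures 2.44 ± 0.22 (adjusted p = 5.73e-06). Kcnq1, a voltage-gated channel of acinar cells, fell by 1.84 ± 0.27 in ADM (adjusted p = 0.000121) and by 3.46 ± 0.27 in tumor cells (adjusted p = 2.84e-07). Kcnk1, a 2-pore channel, was 21.9-fold lower in tumor than in adult cells (adjusted p = 1.35e-07).

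Beside Car2, 11 further carbonic anhydrases were measured. In ADM cultures 2 were called higher and 3 lower than in adult cells, beside 12.5% and 4.22% of all genes. In tumor cells 1 was called higher and 3 lower, beside 14% and 5.96%. Centring on the 75th percentile gave 2 and 4, and 1 and 5, and centring on housekeeping genes 2 and 4, and 1 and 6. Car9, a membrane enzyme induced by hypoxia, read 8.61, 9.73 and 8.72 on the ADM arrays, 4.02, 4.21 and 3.95 on the tumor arrays and 4.69, 4.23 and 4.68 on the adult ones. It was 22.4-fold higher in ADM than in adult cells (4.49 ± 0.33, adjusted p = 3.85e-07) and lower in tumor cells than in ADM by 4.96 ± 0.33 (adjusted p = 2.77e-07). When the Car9 probe sets were averaged these log2 differences were 3.06 and -3.50. The cytosolic Car13 was higher than in adult cells by 1.96 ± 0.34 in ADM (adjusted p = 0.000514) and 2.91 ± 0.34 in tumor cells (adjusted p = 1.34e-05). Car2 and Car13 were thus both above adult cells in ADM and tumor samples, whereas Car9 was high in ADM and not in tumor samples. Of the genes called lower, Car4 differed from adult cells by -1.45 in ADM and -1.49 in tumor cells. Car5b differed by -1.53 in ADM and Car8 by -2.37 in tumor cells. Car7 differed by -1.03 in ADM and -1.01 in tumor cells, calls that both ended without adult replicate 1, among other settings.

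Of 15 regulators of duct transport, 2 were higher and 1 lower in ADM and 4 higher and 3 lower in tumor cells than in adult cells. The shares of all genes were 12.5% and 4.22% in ADM, and 14% and 5.96% in tumor cells. The counts of regulators were 1 and 5, and 3 and 6 after centring on the 75th percentile, and 2 and 4, and 3 and 6 after centring on housekeeping genes. Ezr, which ties apical membrane proteins to actin, was higher by 4.08 ± 0.24 in ADM (adjusted p = 4.41e-08) and 3.49 ± 0.24 in tumor cells (adjusted p = 8.52e-08). Oxsr1, a kinase that activates Slc12a2, was higher in tumor cells by 1.82 ± 0.19 (adjusted p = 5.48e-06), and by 1.20 after quantile normalization and 1.23 after cyclic loess. Stk39, its sister kinase with the same action on Slc12a2, was lower in tumor than in adult cells by 1.54 ± 0.23 (adjusted p = 0.000103). The purinergic receptor P2ry2 split the tumor arrays, with 4.22 on replicate 1 and 7.31 and 7.15 on the other two, and its difference from adult cells (2.07 ± 0.58, adjusted p = 0.0125) was lost without tumor replicate 2 (1.53, adjusted p = 0.0654), without tumor replicate 3 (1.61, adjusted p = 0.0634) and in the fit on those 2 groups alone (adjusted p = 0.0523). Without tumor replicate 1 it was 3.08. Of 8 other aquaporins, Aqp11 alone was called, higher in ADM and embryonic cells than in adult cells and lower in tumor than in embryonic cells. The embryonic difference from adult cells, 1.82 ± 0.47, ended as a call without embryonic replicate 3, and the tumor difference from embryonic cells, -1.64 ± 0.47, without embryonic replicate 3 or tumor replicate 3 and in the fit on those 2 groups alone (adjusted p = 0.0548). The ADM difference, 1.47 ± 0.47, ended as a call without adult replicate 2 or 3 or ADM replicate 1 or 2, and after quantile normalization, cyclic loess or centring on the 75th percentile, where values reached down to 0.86.

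**Figure D4:**
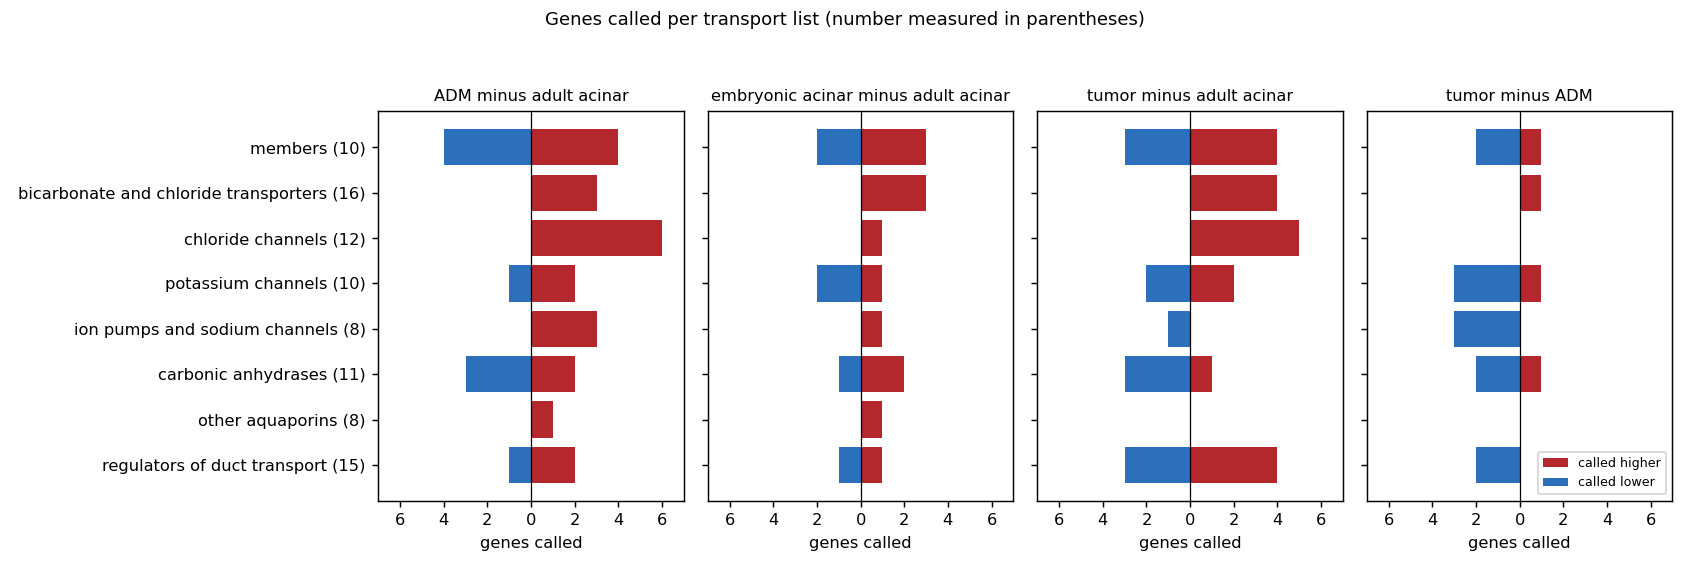
Number of genes called higher (red, to the right) and lower (blue, to the left) than the second group (x axis) among the 10 genes described here, in the top row, and in each of 7 transport lists, with the number measured in parentheses (y axis), for 4 comparisons. Of 12 chloride channels 6 are higher in ADM and 5 in tumor cells. Centring on the 75th percentile took these counts to 2 and 2, with 1 lower in each. Among pumps and sodium channels the same 3 genes are higher in ADM and lower in tumor minus ADM, comparisons that share the ADM arrays.

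The genes with the nearest pattern over the 12 arrays were found for the 9 genes whose group means spanned at least 2, by the root mean square difference after each gene was centred on its own mean. Nearest to Cftr were Il11 (0.24), Cdh16 (0.25) and Itgb6 (0.29), each at 6.68 to 6.74 in ADM and at 3.10 to 3.63 elsewhere. Slc4a4 was nearest to Mgat5 (0.27), Bhlhe40 (0.30) and Rasgef1b (0.33), and Slc26a6 to Gcdh (0.15), Creld2 (0.20) and Tbccd1 (0.22). Slc12a2 was nearest to Gsto1 (0.23), Ano1 (0.27) and Rhbdf2 (0.27), so the chloride channel Ano1 had nearly the same pattern as the chloride loader. The value of 0.15 between Slc26a6 and Gcdh was the closest of all, a typical gap per array under the SD of Slc26a6 in adult cells, 0.51.

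The matches of Car2 and of the aquaporins were looser. Car2 was nearest to Ccnb2 (0.51), Rrm1 (0.51) and Trim59 (0.55), all lowest in adult and highest in tumor cells. Aqp1 was nearest to Fmo1 (0.28), Olfml1 (0.32) and Map3k7cl (0.36), and Aqp8 to Fmo1 (0.50), Gstm7 (0.58) and Clec14a (0.59). Aqp12 was nearest to the amino acid transporter Slc38a5 (0.50), the amylase Amy2b (0.55) and Gnmt (0.55), all at 10.03 to 11.10 in adult cells and 2.83 to 3.58 in tumor cells. Aqp5 was nearest to Gsto1, Avpi1 and Hs3st1, each at 0.37.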

How the data were processed

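Total RNA, taken with a column kit, was biotin-labelled and hybridised to Affymetrix arrays by the standard protocol, per the labels. The deposited values of the 12 arrays are log2 signals per probe set that the authors had already processed. The software, the normalization and the genome build are not given in the sources used here. Arrays have no read depth, and with 3 per group their number limits how precise a value can be.

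Of 41345 probe sets, 23521 carried 1 gene symbol in the platform annotation, 1814 several and 16010 none. Probe sets of the first kind gave 22180 genes. Cross-hybridisation was not tested. All 12 arrays were fitted together with lmFit, contrasts.fit and eBayes of limma 3.58.1 (R 4.3.3), with 4 group means and no replicate block. The fit had 8 residual degrees of freedom and a prior of 5.02. Tests were two-sided, p-values were adjusted over all genes of each of 6 contrasts, and the script was tested on simulated data.

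The genes, the transport lists and the marker lists were chosen with earlier results of these data known. Named transport genes came from up to 3 called genes per list and contrast by absolute difference. Alternatives were quantile normalization, cyclic loess, centring on housekeeping genes or the 75th percentile, leaving dim genes out, the mean of a gene's probe sets, array weights, a trended prior, the replicate number as a block, the 2 groups alone, no minimum difference, and leaving out each array. Replicate numbers were checked for pairing by correlating the deviations of same-numbered arrays. Promoter sequences came from RefSeq's table for GRCm38.p6, matched by gene identifier.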

Additional observations from a re-analysis of the deposited data

How the results depend on the processing

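Counts of called genes among the 10 stayed within 1.5 times of 8, 5, 7, 8, 3 and 8 (ADM, embryonic and tumor minus adult acinar, ADM minus embryonic acinar, tumor minus ADM, tumor minus embryonic acinar) under every alternative. Leaving out each array gave 7 to 8, 4 to 5, 7, 7 to 8, 2 to 3 and 7 to 8. Differences that turned sign were small and uncalled. After quantile normalization Cftr was 0.19 in embryonic minus adult cells and Slc26a6 was 0.15 in tumor minus ADM. After centring on housekeeping genes Cftr was -0.31 in tumor minus adult and -0.12 in tumor minus embryonic cells, and Slc4a2 was -0.013 in tumor minus adult cells. Centring on the 75th percentile gave -0.24 for Cftr in tumor minus adult cells, and array weights gave 0.0066 for Slc4a2 in tumor minus ADM. With 1 array left out, embryonic minus adult was -0.14 to 0.087 for Cftr and -0.19 to 0.037 for Slc4a2, ADM minus embryonic was -0.89 to 0.20 for Car2, and tumor minus ADM was -0.64 to 0.24 for Slc4a4, -0.12 to 0.050 for Slc4a2 and -0.18 to 0.043 for Slc26a6. The cause was not tested.

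Scaling moved all genes. In ADM, embryonic and tumor minus adult cells the median over all genes was -0.11, -0.09 and -0.09, and it became -0.52, -0.26 and -0.78 after centring on housekeeping genes and -0.72, -0.62 and -0.71 after centring on the 75th percentile. The share of all called genes that were higher was 74.7%, 79.3% and 70.2%, against 20.1%, 24.3% and 22.5% after centring on the 75th percentile and 54.1%, 57.3% and 53.6% after quantile normalization. Counts over all genes rose from 3701, 2797 and 4429 to 6687, 4757 and 6932 after centring on the 75th percentile, and in tumor minus adult cells to 7957 after centring on housekeeping genes. With no minimum difference the 6 counts were 7965, 6519, 8254, 3897, 3404 and 5881, against 2098, 1852 and 3179 with it in the last 3.

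The deviations of same-numbered arrays had correlations of -0.048 to 0.13 over 18 pairs, 1 of them over 0.1. Those of differently numbered arrays were -0.12 to 0.11 over 36 pairs, 1 of them over 0.1. The medians were 0.00082 and 0.00091. The labels give no pairing and the ranges were alike, so the numbers were not taken to pair samples. With the replicate number as a block the counts were again 8, 5, 7, 8, 3 and 8, and no call among the 10 genes changed.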

Other observations

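Tumor replicate 1 stood apart from the other 2 tumor arrays in several genes of this set and around it. It had the most Slc4a4, at 9.37 against 7.61 and 7.86, and also more of the duct factor Sox9, at 8.04 against 5.54 and 6.07. It had less of the mucin Muc1, at 6.34 against 8.60 and 8.57, and less P2ry2, at 4.22 against 7.31 and 7.15. P2rx4, an ATP-gated channel, read 6.92 there against 5.06 and 5.29. Its difference between tumor cells and ADM cultures was -1.14 (limma adjusted p = 0.0439, arrays overlapping). The difference was -1.72 without tumor replicate 1 (adjusted p = 7.49e-06) and -0.79 without tumor replicate 2 (adjusted p = 0.201). The call was lost in 13 of 22 alternative settings. Those were the replicate block (adjusted p = 0.0520), the fit on those 2 groups alone and the omission of any array but tumor replicate 1.

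Sctr, the receptor for secretin, the hormone that drives duct bicarbonate secretion, stayed low in these data. The adult arrays read 3.97, 3.88 and 4.17 and the ADM arrays 3.75, 4.03 and 4.91. The tumor arrays lay under background, as did the embryonic mean of 3.25 ± 0.057. ADM cultures with raised Cftr had a mean Sctr of 4.23 ± 0.61, near the adult mean of 4.01 ± 0.15. ADM replicate 3 stood above every adult array.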
